A study of Danio rerio with 6 samples.

Results

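The tight and gap junction genes of the zebrafish embryo were taken from the deposited gene table by symbol. A gene was a member if its symbol began with cldn or ocln, with tjp or cx and a digit, or with gja, gjb, gjc or gjd and a digit. The rule used no measured value. It took 74 of the 30111 genes, made up of 32 claudins, 2 claudin domain proteins, 2 occludins, 5 tight junction proteins of the ZO family and 33 connexins. The table spells many connexins by their older names, and current RefSeq symbols are added in parentheses where they differ. A current symbol was found for 73 members, all except *cx28.1*.

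The embryos were wild type of the AB line, with no transgene and no treatment. Stages are given in hpf, hours after fertilization. T1 was at 10 hpf, T2 at 24 hpf and T3 at 36 hpf, and at each stage 100 embryos were divided at random to make 2 libraries. Each library therefore pooled whole embryos, and no tissue was separated. In such bulk RNA, fewer cells of a type and less RNA per cell cannot be told apart. No source used here says that the libraries of a stage came from separate clutches, so the *p* values rest on the spread within pairs of libraries and that spread may be technical.

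Claudins are membrane proteins that line up in strands between neighbouring epithelial cells and set how tight, and how selective for ions, the seal between them is. Occludin sits in the same strands, and the ZO proteins (tjp genes) are the cytoplasmic scaffold that ties the strands to actin. Connexins form gap junctions, channels that join the cytoplasm of neighbouring cells and pass ions and small molecules, as in the heart, the lens, electrical synapses and the pigment stripes of zebrafish.

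Levels are in RPKM, which scales the reads of a gene to its exon length and to all reads counted in genes. They can be compared between genes whose exons lie on 1 sequence of the assembly. The libraries held 43611332 to 51846237 reads in genes, and 3 reads correspond to 0.0579 to 0.0688 RPKM in a gene with 1 kb of exon. Of the values of 1 to 10 reads, 73.6% to 76.1% were even. Whether both reads of a pair were counted was not tested, and low read numbers here may stand for fewer fragments. The T1 libraries differed most from each other. Of 26043 genes, 949 lay at least 2-fold apart between them on the log2(RPKM + 0.5) scale, against 100 at T2 and 69 at T3. Of 68 members, only *cx28.8* and *cldnh* were at least 2-fold apart at T1, and no member was at T2 or T3. Over all 26043 genes, 14834 were higher in T1 replicate 1 (median log2 difference 0.05), as were 39 of the 68 members. Periderm and epidermis markers were higher in T1 replicate 1 for 13 of 16 genes (median log2 difference 0.48, summed RPKM 6238 against 4379). Germ cell and maternal markers were lower there in 8 of 9 genes (median -0.67). None of these 25 markers was without reads at any stage. The difference was not particular to surface epithelia. Transcription factors of epithelia were higher in T1 replicate 1 in 6 of 19 genes (median -0.23) and fast muscle markers in 3 of 9. Neuron and vessel markers were higher there in 8 of 8 genes each, and glia and myelin markers in 8 of 9. Several members of surface epithelia were also higher in T1 replicate 1, and their T1 values are given separately for each library below.

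Junction genes covered a wide range of levels. In both libraries of at least 1 stage, 41 of the 74 members reached 1 RPKM and 11 reached 10 RPKM, while 30 stayed under 1 RPKM in all 6 libraries. The counts differed by family. All 9 occludins, ZO genes and claudin domain genes reached 1 RPKM at every stage. At T1, 12 of the 32 claudins but 1 of the 33 connexins did so, and the connexin was *cx43.4*. The claudins numbered 14 at T2, with 15 at T3, and the connexins 11, with 9 at T3. The median over the 74 members was 0.399 RPKM at T1, against 0.905 at T2, with 0.840 at T3.

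*cx43.4* (gjc4b), a connexin required in zebrafish for Kupffer's vesicle and left-right patterning, had the highest level of all members at every stage. At T1 it was followed by *cldne*, *oclnb*, *tjp1a*, *cldn5a*, *tjp1b* and *cldnb*, with means of 36.2 down to 23.9 RPKM. Those 6 genes overlapped with their neighbours in the order. At T2 *tjp1a* (39.6 and 39.7 RPKM) stood above *cldne*, *cldnb* and *cldn5a*, which spanned 25.1 to 27.0 RPKM. At T3 *tjp1a* (38.4 and 39.2 RPKM) was again second, and *oclnb*, *cldn5a*, *cldnb* and *cldne* lay between 18.2 and 19.6 RPKM, each overlapping at least 1 of the others. *cldn1* (15.2 and 17.8 RPKM) lay below these 4 at T3.

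**Figure D1:**
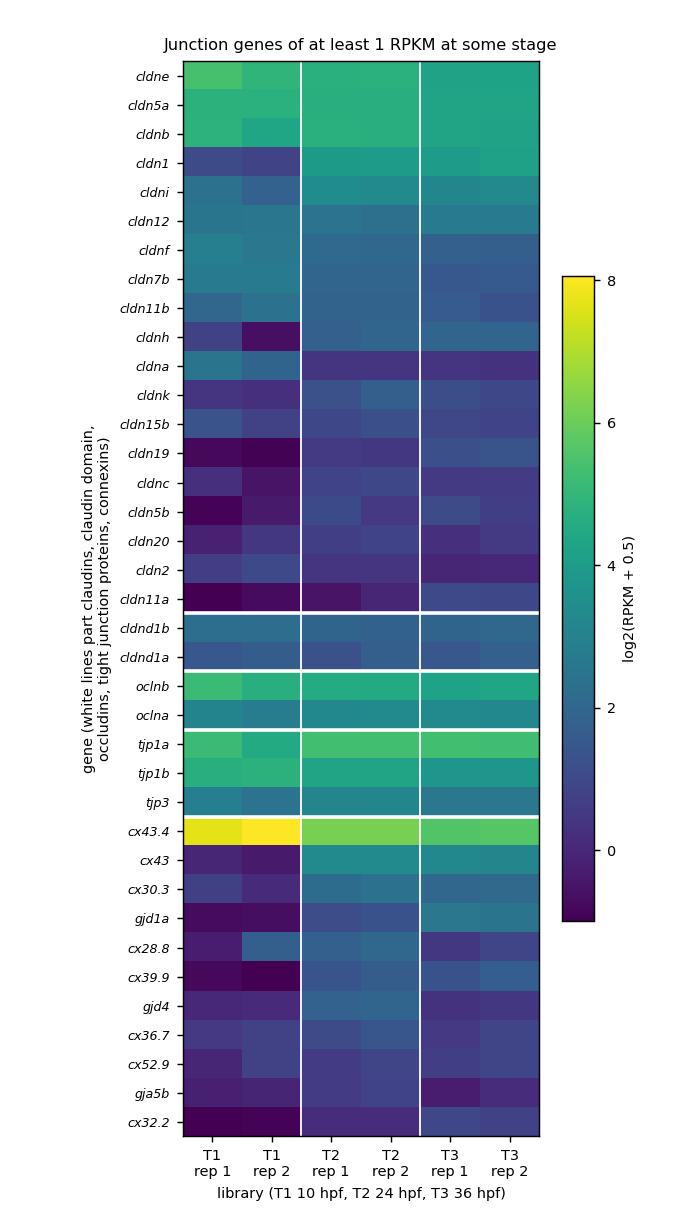
Levels of 37 members that reached 1 RPKM in both libraries of some stage. Each column is 1 library, each row 1 gene, and the color gives log2(RPKM + 0.5). *cx43.4* is brightest at T1, and most connexins below it are darker at T1 than at T2 or T3.

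Each pair of stages was compared with limma on log2(RPKM + 0.5) over all genes with at least 0.1 RPKM in at least 2 of the 4 libraries, and a gene was called where the Benjamini-Hochberg adjusted *p* was under 0.05 and the log2 fold change beyond 1 in either direction. In each comparison 64 members passed this filter and 10 did not. A member that is low at one stage can pass through the other stage alone, so the counts below are not counts over all 74. In all, 22 members were called at least once, 11 claudins and 11 connexins. The share of all genes called at least once was not counted. By comparison, 23.4% of the tested members were called from T1 to T2 (15.4% of all genes). The shares were 10.9% from T2 to T3 (6.04% of all genes) and 28.1% from T1 to T3 (25.0% of all genes). The 3 comparisons share libraries and are not independent. Permuting the labels of the 4 libraries exactly gives a single gene no *p* value below 0.333 (two-sided).

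From T1 to T2, 13 of the 64 tested members rose (12.1% of all genes tested did) and 2 fell (3.29% of all genes). Among the genes that rose were *cldn1*, *cldn5b*, *cldn19*, *cldnh*, *cldni*, *cldnk*, *cx30.3*, *cx32.2*, *cx39.9*, *cx43*, *gjd1a* and *gjd4*, and those that fell were *cldna* and *cx43.4*. The median log2 fold change was 0.35 over the tested members and 0.07 over all genes. Both T2 libraries lay above both T1 libraries for 34 of the 64 (40.5% of all genes) and below for 16 (31.4%). With the adjusted *p* and no fold threshold 18 were higher and 6 lower (8634 of 25088 genes passed). With the log2 values centred on their median, 10 members rose and 6 fell, and the median of all genes moved to -0.27. With quantile normalization 9 rose and 3 fell, with all genes at -0.13. Without T2 replicate 1 or without T2 replicate 2, limma called no gene of the whole table. In these fits 1 T2 library was left, and no called member changed sign.

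From T2 to T3, 7 members were called (6.04% of all genes), of which 4 rose (3.92%) and 3 fell (2.12%). *cldn11a* and *gjd1a* were among those that rose, and *cldn10a*, *cx28.8* and *gjd4* fell. The median log2 fold change was -0.19 over members and -0.08 over all genes. Both T3 libraries lay above both T2 libraries for 11 members (29.2% of all genes) and below for 35 (43.8%). At an unadjusted *p* under 0.05, 32 members passed (12509 of 25183 genes). With the adjusted *p* and no fold threshold 9 were higher and 17 lower (4100 and 5780 of 25183 genes).

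From T1 to T3, 13 members rose (16.3% of all genes) and 5 fell (8.66%). Among those that rose were *cldn1*, *cldn5b*, *cldn11a*, *cldn19*, *cldnh*, *cldni*, *cx30.3*, *cx32.2*, *cx39.9*, *cx43* and *gjd1a*, and those that fell were *cldn7b*, *cldna*, *cldnf*, *cx32.3* and *cx43.4*. The median log2 fold change was 0.13 over members and 0.00282 over all genes. Both T3 libraries lay above both T1 libraries for 27 members (39.7% of all genes) and below for 21 (38.5%), and 35 passed at an unadjusted *p* under 0.05 (14738 of 25184 genes). After median centring 12 rose and 13 fell, with the median of all genes at -0.36. Quantile normalization gave 13 and 8 (all genes -0.17) and upper-quartile scaling 12 and 8 (all genes -0.07). Without T3 replicate 1, or without T3 replicate 2, 9 rose and 1 fell. The calls of *cldn5b*, *cldn7b*, *cldna*, *cldnf*, *cldnh*, *cldni*, *cx30.3* and *cx32.3* were lost in both cases, and none of these genes changed sign. Without T1 replicate 1, the median log2 fold change of all genes was 0.04, and no called member changed sign.

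**Figure D2:**
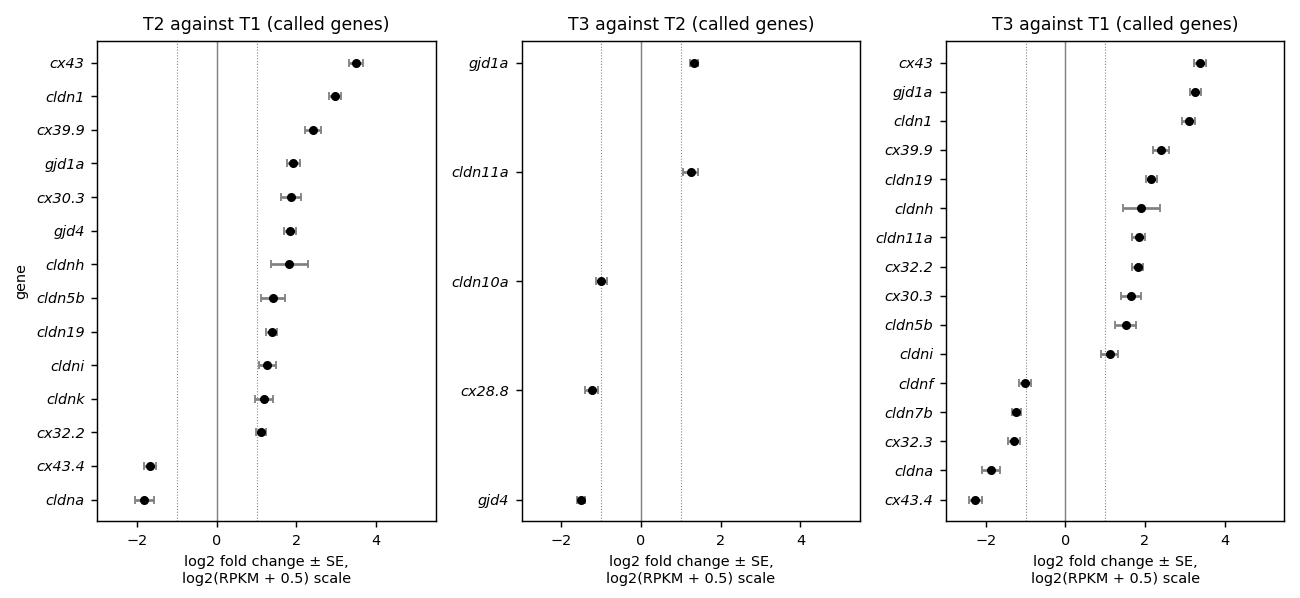
Log2 fold changes of called members in each comparison, as limma estimates on the log2(RPKM + 0.5) scale with standard errors, fitted to 2 libraries against 2. Dotted lines mark a log2 fold change of 1 in either direction. *cx43* and *cldn1* are the largest increases shown from T1 to T2, and *gjd1a* is the largest shown from T2 to T3.

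The 3 most abundant claudins were lower at T3 than at T2, each by less than 2-fold. *cldne*, a claudin of the enveloping layer that covers the gastrula, had 42.3 and 30.1 RPKM at T1, 26.2 and 27.0 at T2, with 18.2 and 18.7 at T3. The stages did not overlap in any comparison. Its log2 fold change from T2 to T3 was -0.51 ± 0.06 (SE, adjusted *p* = 0.00172) and from T1 to T3 -0.93 ± 0.19 (adjusted *p* = 0.0144), both under the fold threshold. The fall from T1 to T3 was called after median centring and with upper-quartile scaling. *cldn5a*, which seals the neuroepithelium around the brain ventricles, had 27.51 and 27.2 RPKM at T1, 25.8 and 25.1 at T2, with 19.1 and 19.2 at T3. It was also lowest at T3 (T2 to T3 log2 fold change -0.40 ± 0.06, adjusted *p* = 0.00353). *cldnb*, a claudin of surface epithelia and the lateral line primordium, had 28.3 and 19.5 RPKM at T1, 26.3 and 25.3 at T2, with 18.9 and 18.3 at T3. Its T1 libraries lay on either side of T2. Together these 3 genes made up 69.8% and 66.8% of the summed claudin RPKM at T1, 57.3% and 56.6% at T2, with 50.8% and 49.8% at T3.

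The largest rise of a claudin on the log2(RPKM + 0.5) scale was that of *cldn1*, whose mammalian counterpart is required for the barrier of the epidermis. It had 1.68 and 1.30 RPKM at T1, 14.9 and 15.2 at T2, with 15.2 and 17.8 at T3. All libraries of T2 and T3 lay far above those of T1, and T2 and T3 overlapped. The log2 fold change from T1 to T2 was 2.97 ± 0.15 (SE, adjusted *p* = 0.00102), and that from T2 to T3 was 0.13 ± 0.09 (adjusted *p* = 0.293). *cldn1* went from 1.14% to 1.19% of the claudin RPKM at T1 to 13.8% to 15.8% at T3, while the claudin sum stayed between 110.6 and 140.6 RPKM.

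*cldni* rose from 4.68 and 3.09 RPKM at T1 to 10.1 and 9.65 at T2, with 8.43 and 9.15 at T3. Its log2 fold change from T1 to T2 was 1.27 ± 0.21 (adjusted *p* = 0.0126) and was not called after median centring. Its exons share 19 bases with *coro1a* on the opposite strand. The sources used here do not say if reads were assigned by strand. *cldnh* (cldn3c) had 1.18 and 0.143 RPKM at T1, 2.97 and 3.37 at T2, with 3.40 and 3.41 at T3. Its T1 libraries differed by 1.39 on the log2 scale, and the log2 fold change from T1 to T2 ranged from 1.12 to 2.51 when 1 library was left out (1.82 ± 0.47 with all, adjusted *p* = 0.0404). It was not called with a pseudocount of 0.1 or without the filter.

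*cldn5b*, *cldnk*, *cldn19* and *cldn11a*, each known from endothelium, glia or kidney, also rose. Not all such genes did. *cldn11b*, the copy of *cldn11a*, was lower at T3 than at T1 (log2 fold change -0.73 ± 0.22, adjusted *p* = 0.0437), under the fold threshold. *cldn5b*, a claudin of endothelium, had 0.0278 and 0.295 RPKM at T1, 1.56 and 0.931 at T2, with 1.62 and 1.101 at T3. It was higher in every T2 and T3 library than at T1 (T1 to T2 log2 fold change 1.41 ± 0.29, adjusted *p* = 0.0235), and T2 and T3 overlapped. The call from T1 to T2 was lost with quantile normalization and with a pseudocount of 1. The 8 vessel markers in the table summed to 6.35 and 3.90 RPKM at T1, 28.6 and 28.3 at T2, with 26.7 and 27.4 at T3, none without reads. Their part in the result was not tested.

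*cldnk*, a gene of myelinating glia in zebrafish, had 0.809 and 0.656 RPKM at T1, 1.86 and 2.81 at T2, with 1.79 and 1.46 at T3. The T1 libraries were lowest. The rise from T1 to T2 was called (log2 fold change 1.18 ± 0.23, adjusted *p* = 0.0187). That call was lost after median centring, with quantile normalization and with a pseudocount of 1. From T1 to T3 the value was 0.78 ± 0.17. *cldn19*, a claudin of kidney and Schwann cells in mammals, had 0.0658 and 0.0238 RPKM at T1, 0.945 and 0.881 at T2, with 1.84 and 2.03 at T3. It stepped up without overlap at each stage (T1 to T3 log2 fold change 2.16 ± 0.14, adjusted *p* = 0.000767).

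*cldn11a*, whose mammalian counterpart forms the strands of central myelin, had no reads in T1 replicate 1 and 0.104 RPKM in replicate 2, 0.193 and 0.490 RPKM at T2, with 1.501 and 1.43 at T3. It rose from T2 to T3 (log2 fold change 1.25 ± 0.19, adjusted *p* = 0.00449) and lost that call without T2 replicate 1, at 0.99. The 9 glia and myelin markers summed to 34.54 and 24.8 RPKM at T1, 97.3 and 102.7 at T2, with 198.1 and 199.7 at T3, with none at 0 reads in both libraries of a stage. From T1 to T3, 5 of these 9 markers were called higher and 1 lower (16.3% and 8.66% of all genes). Their median log2 fold change was 2.38, but not all moved together. *fabp7a*, of radial glia, went from 0.498 to 104 RPKM (means of T1 and T3) and was called higher, while *mbpb*, of myelin, went from 12.9 to 6.16 RPKM (log2 fold change -1.01 ± 0.11, adjusted *p* = 0.00235, called lower) and *sox10* from 5.63 to 3.33 RPKM (adjusted *p* = 0.0673). Their part in the values of *cldnk*, *cldn19* and *cldn11a* was not tested.

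Of the claudins, 4 fell in at least 1 comparison, and 2 of them, *cldna* and *cldnf*, are neighbours on chromosome 15. Of the 28 claudins tested, 1 was called lower at T2 against T1 (3.29% of all genes). At T3, 1 was called lower against T2 (2.12%) and 3 against T1 (8.66%). *cldna* had 5.13 and 3.25 RPKM at T1, 0.773 and 0.829 at T2, with 0.788 and 0.7503 at T3. The whole fall came before T2, with a log2 fold change of -1.82 ± 0.24 (adjusted *p* = 0.00744) to T2 and -0.03 ± 0.11 (adjusted *p* = 0.827) from T2 to T3. *cldn7b*, of the claudin 7 type that is found in many epithelia, had 6.24 and 6.26 RPKM at T1, 3.40 and 3.33 at T2, with 2.33 and 2.42 at T3. It was lower at each later stage (T1 to T3 log2 fold change -1.23 ± 0.12, adjusted *p* = 0.00189). *cldnf* had 7.05 and 5.63 RPKM at T1, 3.799 and 3.68 at T2, with 2.92 and 2.86 at T3. At -1.01 ± 0.15 from T1 to T3 (adjusted *p* = 0.00643) it lay just past the fold threshold, and without T1 replicate 1 it was at -0.86 and not called. *cldn10a* had 1.02 and 0.772 RPKM at T2, with 0.185 and 0.203 at T3. It lay at the fold threshold (-1.0 ± 0.14, adjusted *p* = 0.00316). The call was lost with a pseudocount of 1, with quantile normalization and with upper-quartile scaling. With 1 library left out the log2 fold change ranged from -1.13 to -0.87, short of the threshold without T2 replicate 1 or without T3 replicate 1.

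The other claudins were not called by limma with the pseudocount of 0.5, filter, scaling and libraries set out above. After median centring it called *cldne*, *cldn2*, *cldn11b*, *cldn34a* and *cldng* lower from T1 to T3. With quantile normalization it called *cldn2*, *cldn34a* and *cldng* lower. *cldnc* was called higher from T1 to T2 with all 6 libraries in one fit and with a filter of 1 RPKM. Limma voom called *cldn2* and *cldn34a* lower and *cldnj* and *cldn15la* higher from T1 to T3, *cldn10b*, *cldn34a* and *cldng* lower from T2 to T3, and *cldnj* and *cldnc* higher from T1 to T2. A pseudocount of 0.1 called *cldng* lower from T1 to T3 as well and *cldn15a* higher from T1 to T2. *cldn12* had 4.54 to 6.06 RPKM over all libraries and *cldn15b* 1.19 to 2.02. The exons of *cldn15b* share 112 bases with *naa38* on the opposite strand. *cldn2*, a pore-forming claudin of leaky epithelia in mammals, had 1.08 and 1.501 RPKM at T1, 0.827 and 0.779 at T2, with 0.479 and 0.502 at T3, with a T1 to T3 log2 fold change of -0.85 ± 0.18 (adjusted *p* = 0.016). *cldnj*, needed for otoliths of the inner ear, had 2 reads in each T1 library and at most 0.289 RPKM later. *cldn15la*, a gut claudin, had no reads at T1, which allows up to 0.0736 RPKM in replicate 1 (3 reads), and 0.0887 to 0.328 RPKM later. *cldn34a* had 0.634 and 0.735 RPKM at T1 and 0.123 and 0.20 at T3 (log2 fold change -0.84 ± 0.14, adjusted *p* = 0.00798), and *cldng* 1.08 and 0.778 at T1 and 0.357 and 0.340 at T3 (-0.74 ± 0.17, adjusted *p* = 0.0197). Both were lower at T3 than in every earlier library. *cldn8*, *cldn10b*, *cldn15a* and *cldn20* lay between 0.036 and 1.29 RPKM and were each highest in a T2 library. *cldn7a*, *cldn18* and *cldn15lb* were under the filter in every comparison. *cldn17* had at most 0.136 RPKM and shares 211 exon bases with another gene on the same strand.

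**Figure D3:**
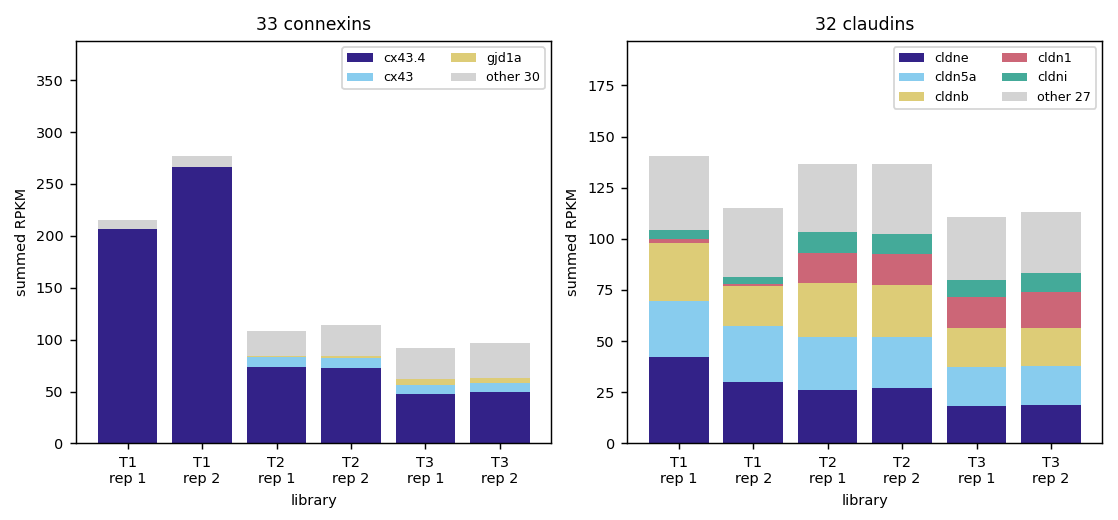
Summed RPKM of the 33 connexins and the 32 claudins in each library, with the leading genes in color and the rest in grey. The connexin sum falls from 215.4 and 277.1 at T1 to 92.3 and 97.2 at T3 as the *cx43.4* bar shrinks, while the claudin bars stay between 110.6 and 140.6.

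The partners and scaffolds of the claudin strands were measured at every stage. Of the 2 occludins, 5 ZO genes and 2 claudin domain genes, 0 were called by limma in any comparison. Of all genes, 15.4% were called at T2 against T1. At T3, 6.04% were called against T2 and 25.0% against T1. With so few genes in the group, 0 calls do not show that it changed less than other genes. At an unadjusted *p* under 0.05 without a fold threshold, 3 of these 9 passed from T1 to T2 (11816 of 25088 genes), 4 from T2 to T3 (12509 of 25183) and 4 at T3 against T1 (14738 of 25184). Limma voom on recovered reads called 2 of the 9 at T3 against T1, among them *tjp1b* (-1.02), where it called 36.3% of all genes, and 0 in the other comparisons. *tjp1b* was also called lower from T1 to T3 after median centring (-1.36) and without T1 replicate 1 (-1.05), and *oclnb* after median centring (-1.0).

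Of the occludins, *oclnb* had 35.7 and 25.4 RPKM at T1, 23.0 and 22.8 at T2, with 18.7 and 19.6 at T3. Each later stage lay below the one before, with a T1 to T3 log2 fold change of -0.64 ± 0.19 (adjusted *p* = 0.042). *oclna* had 7.98 and 6.60 RPKM at T1, 8.86 and 9.27 at T2, with 9.67 and 8.81 at T3. Its T1 libraries were lowest, with a T1 to T3 log2 fold change of 0.33 ± 0.14 (adjusted *p* = 0.115).

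The claudin domain genes *cldnd1a* and *cldnd1b*, distant relatives of the claudins, had 1.89 to 2.96 RPKM and 3.06 to 4.30 RPKM over the 6 libraries.

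Among the ZO genes, *tjp1a* (ZO-1) had 35.6 and 22.7 RPKM at T1, 39.7 and 39.6 at T2, with 39.2 and 38.4 at T3. Its copy *tjp1b* had 25.8 and 27.7 RPKM at T1, 19.0 in both T2 libraries, and 13.2 and 13.1 at T3. The *tjp1b* stages did not overlap, and the T1 to T3 log2 fold change of -1.0 ± 0.10 (adjusted *p* = 0.00217) did not exceed the fold threshold. *tjp3* (ZO-3), which serves the epidermal barrier in fish, had 7.06 and 4.95 RPKM at T1, 8.31 and 8.52 at T2, with 5.54 and 5.55 at T3. It was highest at T2 and lower at T3 (log2 fold change -0.56 ± 0.07, adjusted *p* = 0.00213).

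Among the connexins, 8 rose in at least 1 comparison. Of the 27 tested, 7 were called higher at T2 against T1 (12.1% of all genes). At T3, 3 were called higher against T2 (3.92%) and 7 against T1 (16.3%). Those that fell in at least 1 comparison were *cx43.4*, *cx32.3*, *cx28.8* and *gjd4*, the last of which also rose. At T2 against T1, 1 connexin was called lower (3.29% of all genes). At T3, 2 were called lower against T2 (2.12%) and 2 against T1 (8.66%). *cx43.4* had 206.3 and 266.3 RPKM at T1, 73.5 and 73.1 at T2, with 47.5 and 49.8 at T3. The stages were far apart, with log2 fold changes of -1.67 ± 0.15 from T1 to T2 (adjusted *p* = 0.00322), -0.59 ± 0.06 from T2 to T3 (adjusted *p* = 0.00113, not past the fold threshold) and -2.26 ± 0.16 from T1 to T3 (adjusted *p* = 0.000867). It made up 95.8% and 96.1% of the connexin RPKM at T1, 67.6% and 64.2% at T2, with 51.4% and 51.3% at T3. The other 32 connexins together had 9.03 and 10.8 RPKM at T1, 35.2 and 40.8 at T2, with 44.9 and 47.4 at T3.

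*cx43* (gja1b), the connexin of the short fin mutant, had the largest log2 fold change of the tested members from T1 to T2. It had 0.483 and 0.295 RPKM at T1, 9.55 and 9.46 at T2, with 8.82 and 8.52 at T3. The step came before T2, with a log2 fold change of 3.5 ± 0.17 (adjusted *p* = 0.00101), and from T2 to T3 it was -0.13 ± 0.06 (adjusted *p* = 0.171).

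*gja3* and *cx23* (gje1a), connexins of the zebrafish lens, were measured at low levels. *gja3* had 0.0384 and 0.0296 RPKM at T1, 0.167 and 0.246 at T2, with 0.356 and 0.323 at T3. *cx23* had 2 reads in the T1 libraries together, 4 and 6 reads at T2 and 40 and 26 reads at T3. Neither was called with a pseudocount of 0.5, and with 0.1 both were called from T1 to T3. The 13 lens markers, among them crystallins and the lens membrane and filament genes, summed to 5.55 and 4.54 RPKM at T1, 26.3 and 38.2 at T2, with 445.2 and 446.9 at T3. Of these, 12 of 13 were called higher from T2 to T3 and all 13 from T1 to T3 (3.92% and 16.3% of all genes). At T1, 3 of the markers were under 0.1 RPKM in both libraries, none without reads. Their part in the values of *gja3* and *cx23* was not tested.

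The connexins of neurons and muscle took different courses. *gjd1a*, a connexin of electrical synapses, had 0.0948 and 0.125 RPKM at T1, 1.69 and 1.94 at T2, with 5.496 and 5.16 at T3. It rose at each step, by log2 fold changes of 1.92 ± 0.16 (adjusted *p* = 0.00282) and 1.33 ± 0.10 (adjusted *p* = 0.000435). All 8 neuron markers were called higher from T1 to T2 and 6 of 8 from T2 to T3 (12.1% and 3.92% of all genes). These markers summed to 23.2 and 15.3 RPKM at T1, 171.7 and 188.9 at T2, and then 392.4 and 364.9 at T3. None was without reads, and their part in the values of *gjd1a* was not tested. Another connexin of electrical synapses, *gjd2b*, stayed between 4 and 25 reads per library and was not tested. The annotation places exons of both on more than 1 sequence.

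*gjd4*, whose mouse counterpart is found in developing muscle, was the only member called higher from T1 to T2 and lower from T2 to T3. It had 0.536 and 0.558 RPKM at T1, 3.15 and 3.35 at T2, with 0.761 and 0.869 at T3. It rose by a log2 fold change of 1.84 ± 0.16 (adjusted *p* = 0.00276) and fell by 1.51 ± 0.10 (adjusted *p* = 0.000383). *cx39.9* (gja2), a connexin of skeletal muscle, had 6 reads in T1 replicate 1 and none in replicate 2, 2.04 and 2.70 RPKM at T2, with 1.94 and 2.73 at T3. It rose before T2 (log2 fold change 2.41 ± 0.20, adjusted *p* = 0.00269) and T2 and T3 overlapped. The spans of *cx39.9* and *cx27.5* overlap at their ends in the genome, and no exon base is shared. The 9 fast muscle markers summed to 10.6 and 11.5 RPKM at T1, 2375 and 2818 at T2, with 7994 and 8547 at T3. From T2 to T3, 8 of these 9 markers were called higher (3.92% of all genes). Their part in the values of *gjd4* and *cx39.9* was not tested.

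Among the remaining connexins, *cx30.3* (gjb8) had 1.16 and 0.577 RPKM at T1, 4.08 and 4.68 at T2, with 3.52 and 3.89 at T3. It rose before T2 (log2 fold change 1.86 ± 0.25, adjusted *p* = 0.0081). *cx28.8* (gjb7) had 0.316 and 2.82 RPKM at T1, 2.96 and 3.66 at T2, with 0.889 and 1.35 at T3. Its T1 libraries differed by 2.03 on the log2 scale, the widest gap of the 68 members compared. The log2 fold change was 1.20 ± 0.67 from T1 to T2 (adjusted *p* = 0.221) and -0.04 ± 0.69 from T1 to T3 (adjusted *p* = 0.969). Only the fall from T2 to T3 was called (log2 fold change -1.24 ± 0.17, adjusted *p* = 0.00343). Fitted with all 6 libraries, that fall was not called. *cx32.2* (gja13.2) had 2 reads in the T1 libraries together, 0.607 and 0.616 RPKM at T2, with 1.41 and 1.23 at T3. Its T1 to T3 log2 fold change was 1.82 ± 0.14 (adjusted *p* = 0.00106). Its call from T1 to T2 was lost after median centring, with quantile normalization and with a pseudocount of 1.

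The connexins that follow, among them some known from the heart, pigment cells and retina, stayed under 2.2 RPKM. *cx36.7* (gjd6), a connexin of the early zebrafish heart, had 0.915 and 1.18 RPKM at T1, 1.61 and 2.16 at T2, with 0.929 and 1.36 at T3, and T1 and T3 overlapped. *gja5b*, the gene of the leopard pigment mutant, had 0.360 and 0.457 RPKM at T1, 1.01 and 1.28 at T2, with 0.333 and 0.606 at T3. It was highest at T2 (T1 to T2 log2 fold change 0.86 ± 0.18, adjusted *p* = 0.0236, and T2 to T3 -0.77 ± 0.18, adjusted *p* = 0.0183), under the fold threshold in both steps but called in both with voom. *cx39.4* (gja4), which also acts in pigment stripes, had 0.0446 to 0.437 RPKM. Of the 4 connexins known from retinal horizontal cells, *cx52.9* (gja9b) had 0.473 to 1.36 RPKM, *cx52.6* (gja10b) 0 to 0.603, *cx52.7* (gja10a) 0.0225 to 0.299 and *cx55.5* (gja9a) 0.0656 to 0.205. *cx52.6* was higher at T2 than in the other libraries (T1 to T2 log2 fold change 0.88 ± 0.17, adjusted *p* = 0.0203), under the fold threshold. Voom and a pseudocount of 0.1 each called *cx52.6* higher from T1 to T2 and lower from T2 to T3. Voom also called *cx55.5* lower from T2 to T3. The tested connexins *cx27.5*, *cx28.6*, *cx30.9*, *cx31.7*, *cx34.4*, *cx35.4*, *cx44.2* and *gja5a* were between 0 and 1.16 RPKM and were not called.

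Of the 74 members, 10, among them *cldni*, *cldn7b*, *cldn10a*, *cx30.3*, *gja3*, *gjd1a* and *gjd2b*, have exons on more than 1 sequence of the assembly. How reads that fit both copies were treated was not tested. Exon length in the annotation can also take in exons on the other sequences. For *cx30.3* it was 4480 bases, longer than the span of the gene on chromosome 9 (21401194 to 21405059). Levels of these members are therefore not directly comparable with those of other genes. Of these 10 members, 40% were under 0.5 RPKM in every library, against 31.2% of the other 64. Over all genes, 1992 of the 5840 with such exons and 6668 of the other 24271 were under that level.

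Junction genes that lie close together included some with opposite changes. With gaps of up to 100 kb, 28 members lay in 10 clusters. The largest holds *cx43*, *cx32.2*, *cx28.1*, *cx28.9*, *cx32.3* and *cx34.5* within 45.1 kb of chromosome 20 (GRCz11, chr20:40715163-40760217), with no other gene starting between them. In this row *cx43* and *cx32.2* rose from T1 to T3, while *cx32.3* (gja13.1) fell from 0.975 and 0.840 RPKM at T1 to 0.518 and 0.155 at T2, with 0.0302 and 0.115 at T3 (T1 to T3 log2 fold change -1.30 ± 0.15, adjusted *p* = 0.00288). *cx34.5* (gja11) went from 20 and 7 reads at T1 to 0 and 4 at T3, and *cx28.9* (gja12.1) had 0.165 and 0.106 RPKM at T1 and at most 0.0154 at T3. *cx28.1* had at most 4 reads in any library.

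On chromosome 15, *cldnj*, *cldne*, *cldnf* and *cldna* lie on the same strand within 26.3 kb (chr15:2631211-2657508). Of these, *cldne*, *cldnf* and *cldna* were each lower at T3 than at T1, by log2 fold changes of -0.93, -1.01 and -1.86 (adjusted *p* = 0.0144, 0.00643 and 0.00383, limma), the first under the fold threshold, and *cldnj* had a log2 fold change of 0.46 ± 0.12 at under 0.3 RPKM. On chromosome 21, *cldnh*, *cldnc*, *cldnb* and *cldnd* lie within 38.9 kb (chr21:25739296-25778198). *cldnh* rose, and *cldnb* had a T1 to T3 log2 fold change of -0.33 ± 0.20 (adjusted *p* = 0.225). *cldnc* (cldn3d) went from 0.696 and 0.192 RPKM at T1 to 1.29 and 1.44 at T2 (log2 fold change 1.03 ± 0.30, adjusted *p* = 0.0532), and *cldnd* stayed between 0.161 and 0.298 RPKM.

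**Figure D4:**
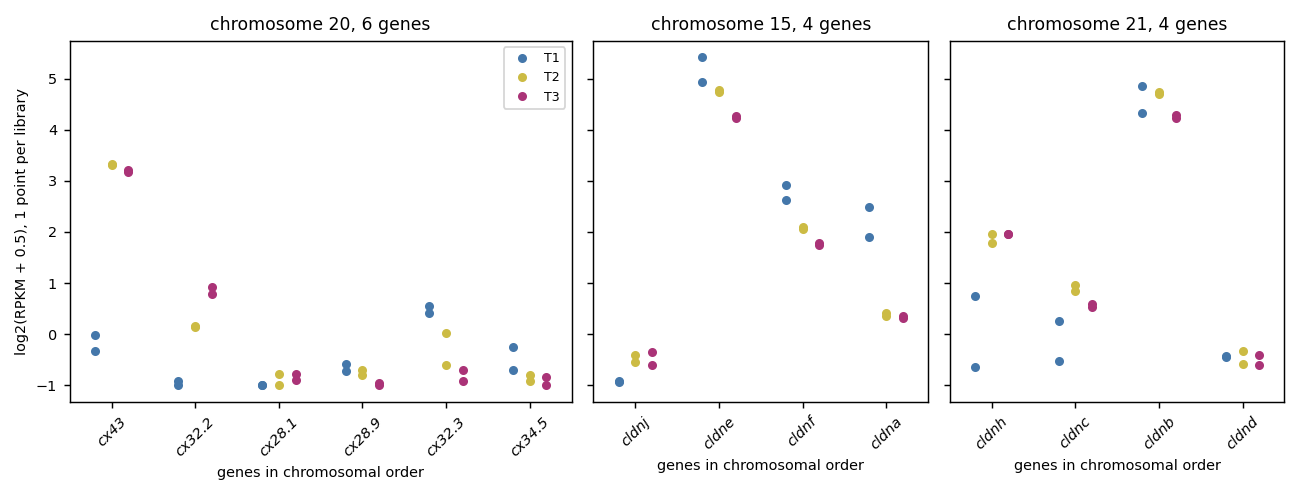
Levels of the junction genes in the clusters on chromosomes 20, 15 and 21, as log2(RPKM + 0.5) with 1 point per library and genes in chromosomal order. In the chromosome 20 cluster *cx43* and *cx32.2* are higher at T2 and T3 than at T1, and *cx32.3* is lowest at T3.

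Zebrafish carries many of these genes as duplicates, and 12 pairs have symbols ending in a and b in the deposited spelling. Copies listed under older connexin names, such as *cx55.5* (gja9a) and *cx52.9* (gja9b), are not among these 12. The ratio of the copies differed between the stages in several pairs. *cldn11b* had 78.7 times the mean RPKM of *cldn11a* at T1, where *cldn11a* had 6 reads in all, 9.30 times at T2 and 1.55 times at T3. Over the same stages *cldn11b* went from 3.48 and 4.74 RPKM to 2.62 and 1.92. The mean RPKM of *cldn5a* was 169 times that of *cldn5b* at T1, 20.4 times at T2 and 14.0 times at T3, *cldn5b* having 0.0278 RPKM in the lower T1 library. *oclnb* was 4.19, 2.53 and 2.07 times *oclna* at T1, T2 and T3.

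Of the ZO genes, *tjp1a* was 1.09 times *tjp1b* at T1, with the order differing between the libraries, 2.09 times at T2 and 2.96 times at T3. These ratios are descriptions, and no test of the balance of a pair was run.

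**Figure D5:**
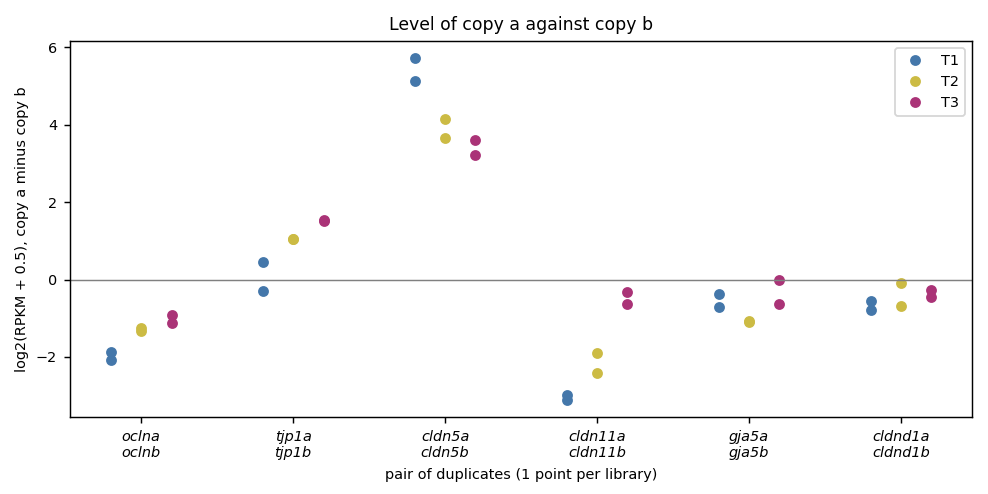
Difference in log2(RPKM + 0.5) between copy a and copy b of 6 duplicate pairs, with 1 point per library. Points above 0 mean that copy a is higher. The *cldn11* pair moves toward 0 from T1 to T3, and the pair of *tjp1a* and *tjp1b* lies on both sides of 0 at T1 and above 0 later.

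Other components of tight junctions and of cell polarity were read from lists. Of 26 tight junction partners (JAM proteins, tricellular proteins and further scaffolds), 2 were called higher and 0 lower from T1 to T2, 0 higher and 1 lower from T2 to T3, and 2 higher and 2 lower from T1 to T3. The shares called were 7.69%, 3.85% and 15.4%, against 15.4%, 6.04% and 25.0% of all genes. *jam2a*, an adhesion molecule that also serves myoblast fusion in zebrafish, went from 1.36 ± 0.0215 RPKM at T1 (SD, n = 2) to 8.18 ± 0.920 at T2 and 2.12 ± 0.00207 at T3, a peak at T2 like that of *gjd4* (log2 fold changes 2.22 ± 0.15 and -1.73 ± 0.10, adjusted *p* = 0.0018 and 0.000238). *cgnl1*, paracingulin, had 120.6 ± 5.32 RPKM at T1, 62.2 ± 0.513 at T2 and 43.3 ± 1.64 at T3 (T1 to T3 log2 fold change -1.47 ± 0.10, adjusted *p* = 0.000866). The median of the list from T1 to T3 was -0.22, against 0.00282 over all genes.

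Of 23 tested genes of the apical polarity complexes, 5 rose and 0 fell from T1 to T2, and 5 rose and 1 fell from T1 to T3. The shares called were 21.7% and 26.1%, against 15.4% and 25.0% of all genes. From T2 to T3 limma called 0 (6.04% of all genes), and 0 passed at an unadjusted *p* under 0.05 with the fold threshold. *pard3bb* went from 3.37 ± 1.36 RPKM at T1 (SD, n = 2) to 12.2 ± 0.695 at T2, *crb1*, a crumbs gene, from 0.769 ± 0.277 to 2.99 ± 0.359, and *lin7b* from 1.15 ± 0.255 at T1 to 5.53 ± 0.0311 at T3. The gene that fell, named after its values were seen, was *mpp5b*, from 4.05 ± 0.213 to 1.52 ± 0.0991 RPKM. Of 4 pannexins, channels with a fold like that of connexins, only *panx1a* was called by limma. It had 12.6 ± 0.142 RPKM at T1 and 4.61 ± 0.0337 at T3 (log2 fold change -1.36 ± 0.11, adjusted *p* = 0.00114). *panx1b* went the other way at low level, from 0.0195 to 0.314 RPKM (0.65 ± 0.11, adjusted *p* = 0.00829).

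Of the transcription factors of epithelia, 9 of 18 tested fell and 1 rose from T1 to T2, and 10 of 19 fell and 2 rose from T1 to T3. The shares called were 55.6% and 63.2%, against 15.4% and 25.0% of all genes. *grhl2b*, a grainyhead factor of surface epithelia, had 31.6 ± 11.3 RPKM at T1 (SD, n = 2) and 7.73 ± 0.648 at T2, and *klf17*, a factor of the early hatching gland, 18.02 ± 2.72 at T1 and 2.19 ± 0.528 at T3. *elf3* rose from 0.400 ± 0.0999 RPKM at T1 to 13.3 ± 1.62 at T3. The 16 periderm and epidermis markers had no common direction, with 4 called higher and 4 lower from T1 to T3 (16.3% and 8.66% of all genes). Their sum was 6238 and 4379 RPKM at T1, 6690 and 6511 at T2, with 6853 and 7240 at T3, and their part in the values of the surface claudins was not tested.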

How the data were processed

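RNA of wild-type AB embryos was sequenced in 6 libraries, 2 per stage, from rRNA-depleted total RNA. The authors aligned reads to GRCz11 with STAR, counted them per gene with featureCounts and deposited RPKM values. Exon lengths turn 100% of the deposited RPKM values into whole reads (tolerance 0.01). The unit being RPKM, limma 3.58.1 in R 4.3.3 was used on log2(RPKM + 0.5), with robust empirical Bayes moderation and an intensity trend (statmod 1.5.0), on the 4 libraries of each pair of stages. Tables were handled in Python 3.11.15. The test was tested on simulated data. No value column lacked a sample (0 left out).

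The members and lists were chosen with earlier results of these data known. Genes were named if they were among the 12 largest rises or 8 largest falls of a comparison (called, at least 1 RPKM in both libraries of the higher stage, no overlap of stages), among the 8 most abundant of a stage, or on a fixed list of members with known roles, and for other lists among the 3 largest called changes. *cldn10b*, *cldn15b*, *cldn17*, *cldn20*, *cldn34a*, *cx23*, *cx28.1*, *cx28.6*, *cx28.9*, *cx31.7*, *cx35.4*, *gja5a*, *panx1b*, the claudin domain genes, the named glia markers and the overlapping genes were named after their values were seen. Fold changes on the log2(RPKM + 0.5) scale understate those of low genes. Alternatives changed the pseudocount, filter, scaling, libraries, moderation, block, fold threshold and adjustment, or used limma voom on the recovered reads. RefSeq (GRCz12tu) served for current symbols only. No member sequence was used here. Some members enter the counts, sums and tests but are not reported here by name.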

Additional observations from a re-analysis of the deposited data

How the results depend on the processing

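The counts of called members moved by over 1.5 times under these settings. From T1 to T2, the 2 lower members became 6 after median centring and 6 with no fold threshold. Leaving out single libraries gave 0 to 16 higher and 0 to 3 lower members, with 0 of both without either T2 library (smallest adjusted *p* of a member 0.0712 and 0.08, limma). From T2 to T3, the 4 higher members became 7 with voom and 9 with no fold threshold, and the 3 lower ones 7 with a pseudocount of 0.1, 9 with voom and 17 with no fold threshold. Leaving out single libraries gave 3 to 4 higher and 2 to 3 lower. From T1 to T3, the 5 lower members became 11 with a pseudocount of 0.1, 3 with a pseudocount of 1, 13 after median centring, 8 with quantile normalization, 8 with upper-quartile scaling, 10 with voom and 15 with no fold threshold. Leaving out single libraries gave 9 to 14 higher and 1 to 8 lower. The share of higher calls over all genes went from 78.6% to 47.6% (median centring) and 60.5% (quantile) from T1 to T2 and from 65.3% to 38.7% and 52.0% from T1 to T3. Over all genes, the 3038 higher and 825 lower calls from T1 to T2 became 4375 and 1272 with a pseudocount of 0.1, 2033 and 2242 after median centring, 2253 and 1474 with quantile normalization, 4645 and 1278 with voom, 3616 and 1244 without T1 replicate 1, and 5446 and 3188 with no fold threshold. From T2 to T3, 987 and 533 became 1809 and 1273 with a pseudocount of 0.1, 661 and 336 with a pseudocount of 1, 2116 and 1533 with voom, and 4100 and 5780 with no fold threshold. From T1 to T3, 4112 and 2181 became 2941 and 4653 after median centring, 2176 and 663 without T3 replicate 1, 2090 and 621 without T3 replicate 2, and 6979 and 5929 with no fold threshold. With a pseudocount of 0.1, the higher and lower calls over all genes from T1 to T3 were 5758 and 3160, and with 1 they were 3103 and 1635. Quantile normalization gave 3310 and 3060, upper-quartile scaling 3858 and 2693, and voom 5956 and 3188. The cause of these shifts was not tested. No called member changed sign under any setting run. Over single genes, 73 calls were lost and 126 gained over the settings, and 3178 values kept their side of the thresholds. With replicate number as a block, 14 members were higher and 2 lower from T1 to T2 (*cldnc* added), and the other counts stayed. Same-numbered libraries share only a number, with correlations of their deviations of 0.0869, 0.00369 and -0.0158. Low genes are limited by depth, since 3 reads in 1 kb of exon are 0.0579 to 0.0688 RPKM.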
